A study of Mus musculus with 8 samples.

Results

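Contactins and contactin-associated proteins are cell adhesion molecules of axons and synapses, and 9 of their genes were described here: the 6 contactins Cntn1 to Cntn6 and the 3 contactin-associated proteins Cntnap1, Cntnap2 and Cntnap4. They were taken by gene symbol from the 56576 genes of the table, by a rule that used no measured value. The RNA came from cortical synaptosomes (a fraction enriched in pinched-off nerve endings) of mice at postnatal day 15, and it was pulled down with ribosomes whose protein Rpl22 carries an HA tag. Controls were Lhx6-Cre;Erbb4+/+;Rpl22HA/HA mice (4 libraries, replicates 1, 3, 4 and 5) and conditional mutants were Lhx6-Cre;Erbb4F/F;Rpl22HA/HA mice (4 libraries, replicates 2, 3, 4 and 5). All 8 libraries therefore carried the same Cre and the same tag, and only the floxed allele of Erbb4, a receptor tyrosine kinase for neuregulins, differed. Lhx6-Cre recombines soon after the last division in interneurons from a pair of ventral birthplaces, the preoptic area and the medial ganglionic eminence (MGE), so the tag and the deletion both extend to parvalbumin and somatostatin cells. The replicates were brains from different litters.

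Contactins are immunoglobulin-domain proteins held to the membrane by a lipid (GPI) anchor, and most act in pairs with transmembrane partners. Contactin-associated proteins (Caspr proteins) are relatives of neurexins that span the membrane. Cntn1 and Cntnap1 form the axonal side of the paranodal junction beside the nodes of Ranvier, and Cntn2 and Cntnap2 hold Kv1 potassium channels in the neighbouring juxtaparanode. Cntn3 to Cntn6 and Cntnap4 are better known from developing neurites and synapses, and Cntnap4 has been studied at the output synapses of cortical interneurons.

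All 9 genes were well measured. Each library had between 51010687 and 80226984 reads on genes, and the fewest reads on any of the 9 genes in any library were 619, so differences between libraries exceeded counting error. Values are counts divided by 1 size factor per library, called normalized counts, and fold changes and tests use log2(normalized count + 1). A gene was called when its limma p was at most 0.05 before adjustment and its change at least 1.5-fold. Erbb4, the deleted gene, had between 1640 and 5377 normalized counts in controls and between 1048 and 1711 in mutants (log2 fold change -1.25, SE 0.34, limma p = 0.0041, adjusted p = 0.58, exact permutation p = 0.086). The library labelled control replicate 1 had 1640, below the 1711 and 1648 of mutant replicates 2 and 3, and without it the log2 difference was -1.58. Fold changes of the 9 genes, calls and likeness are therefore also given without that library. Markers of the labelled cells were present in every library. The summed counts of 13 MGE interneuron markers (Lhx6, Sst, Pvalb and others) lay between 80095 and 574975 in controls and between 30673 and 222385 in mutants. RNA of unlabelled cells was present too. The sums of 12 excitatory neuron markers were 141174 to 176575 in controls and 124983 to 153869 in mutants. All 8 libraries are pulldowns, so enrichment of the labelled cells was not tested, and the levels below are those of the pulldown.

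In the main fit, which did not pair libraries by replicate number, none of the 9 genes passed the call in Erbb4 conditional mutants. With replicate number as a block, 5 of the 9 were called lower, as were 1719 of all genes tested. In the main fit all 9 had a log2 fold change below 0, although Cntn2 turned to 0.06 when libraries were scaled by their total reads on genes. The 9 log2 fold changes ran from -0.81 (Cntnap2) to -0.13 (Cntn2), with a median of -0.39. Among the 31171 genes tested, 46.6% had a value below 0 and the median was 0.06. Among the 8324 of these whose mean reached 1000 normalized counts, as in all 9 genes, 53.5% were below 0 and the median was -0.04. The call was met as lower by 988 genes (3.17% of those tested) and as higher by 1241 (3.98%). The values of the 2 genotypes overlapped in each of the 9 genes, whereas every mutant lay below every control in 677 genes (2.17%). Without control replicate 1 all 9 genes were still below 0, Cntn2 and Cntnap1 were called lower, and 643 genes of all tested were called lower and 871 higher. Scaling by total reads moved the median of all genes up by 0.18 and changed the calls to 415 lower and 2255 higher. Relative to the median of all genes, the median of the 9 was -0.45 with size factors and -0.44 with total reads. In cortical preparations of this kind, fewer tagged cells or endings and less RNA in each cannot be told apart.

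**Figure D1:**
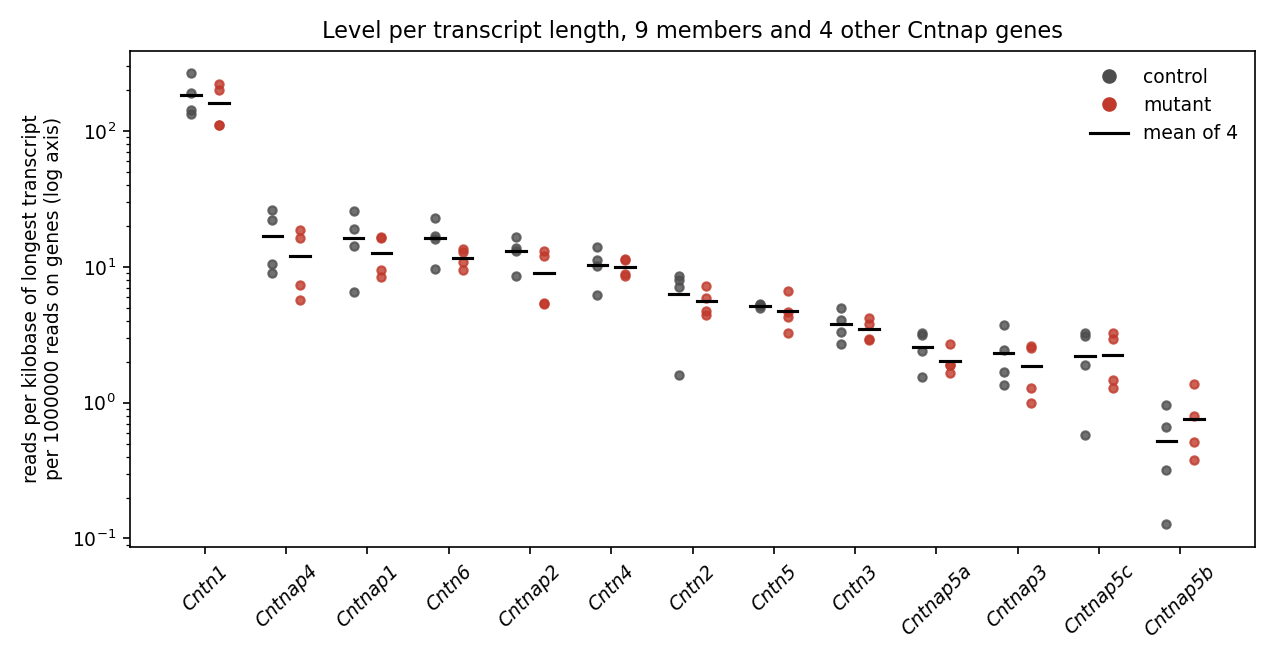
Reads per kilobase of each gene's longest transcript per 1000000 reads on genes (log axis) in the 4 control (grey) and 4 mutant (red) libraries, with a line at each mean. Cntn1 lies above the other genes in every library, at a mean of 184 in controls, and the other 8 contactin and Caspr genes lie between 3.78 and 16.99.

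Cntn1 was by far the most abundant of the 9 genes. Per kilobase of its longest GENCODE transcript (5671 bases) and per 1000000 reads on genes, its level was 184 ± 60.6 (SD, n = 4) in controls and 161 ± 59.5 in mutants. Cntnap4 followed in controls at 16.99 ± 8.44, and Cntn1 was above it in 8 of 8 libraries, by 10.8-fold in the control means. Cntnap1 (16.5 ± 8.17) and Cntn6 (16.4 ± 5.43) could not be ordered against Cntnap4 or each other, since the order of neighbours held in 4 and in 5 of the 8 libraries. Cntnap2 came next at 13.05 ± 3.33 in controls and was below Cntn6 in 7 of 8 libraries, by a difference smaller than the SD of Cntn6.

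The lower end of the order was held by contactins. Cntn4 stood at 10.4 ± 3.25 on this scale in controls, and its order with Cntnap2 held in only 5 of 8 libraries. Cntn2 was at 6.32 ± 3.20, Cntn5 at 5.18 ± 0.137 and Cntn3 at 3.78 ± 0.986, and each was below its upper neighbour in 7 of 8 libraries. The highest of the 9 control means was 48.6 times the lowest. The 4 other Cntnap genes of the table were lower still, with control means between 0.518 (Cntnap5b) and 2.59 (Cntnap5a). The lengths are those of the longest annotated transcripts, while reads were counted on constitutive regions whose lengths are not given in the sources used here, so this order is approximate.

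**Figure D2:**
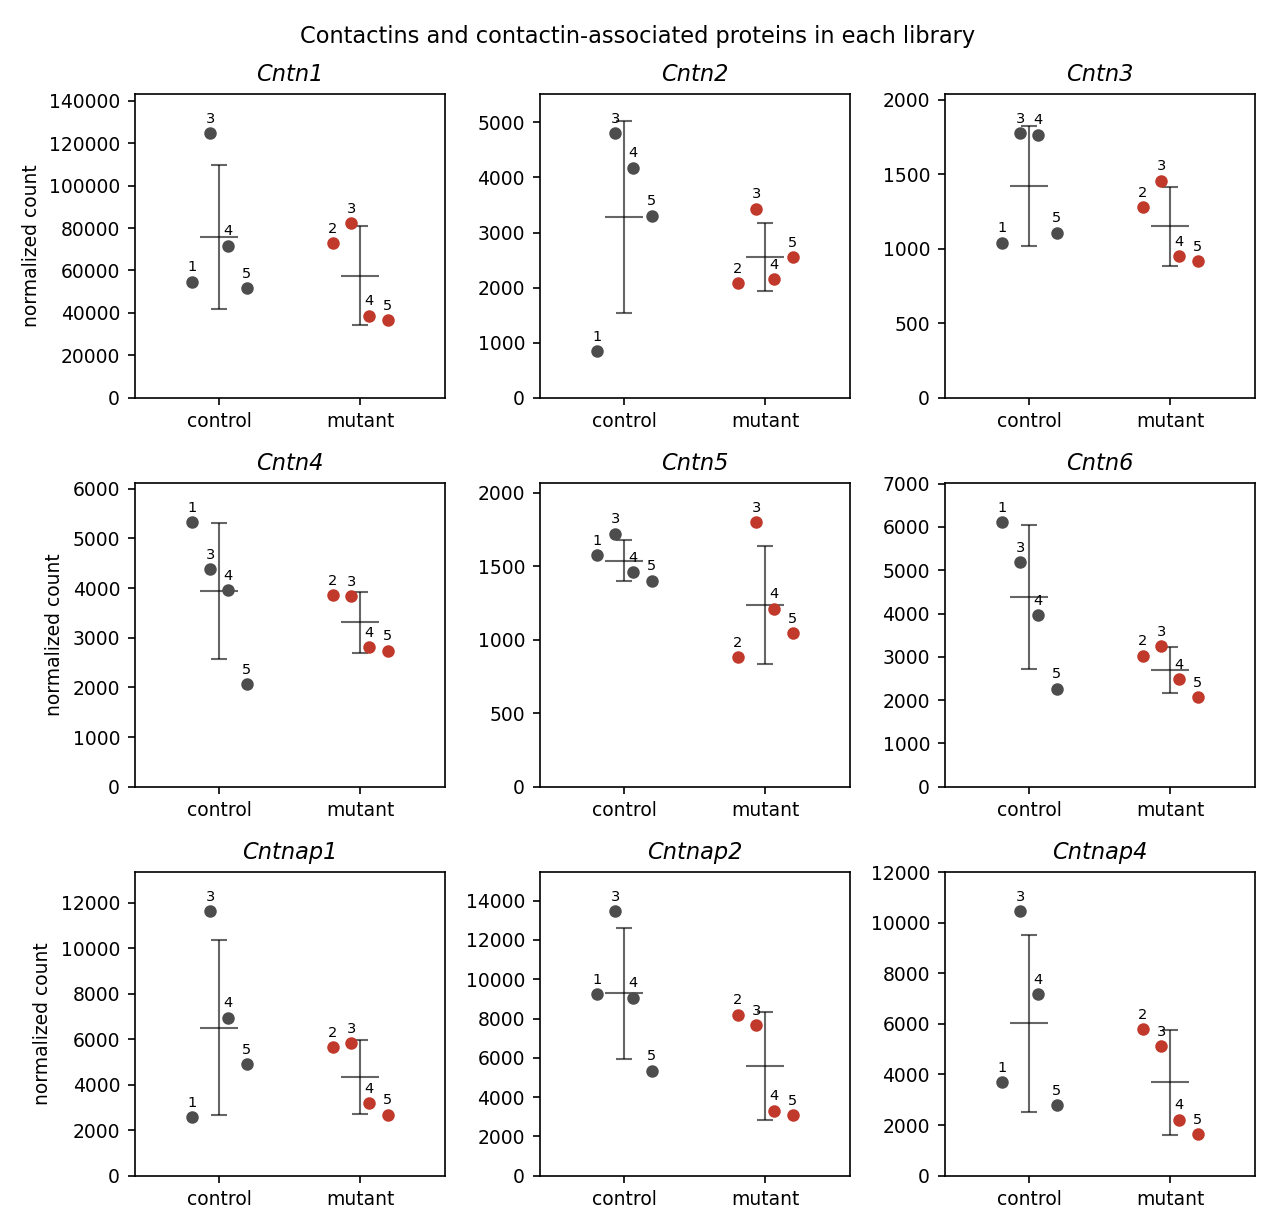
Normalized counts of the 9 genes in each library (axes start at 0; small numbers are replicate numbers; bars show the mean and SD of 4 libraries). Control and mutant values overlap in every panel, and mutant replicates 4 and 5 are the lowest mutants for Cntn1, Cntn3, Cntn4, Cntn6, Cntnap1, Cntnap2 and Cntnap4.

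Cntnap2, the juxtaparanodal Caspr2, had the lowest fold change of the 9 genes. It lies on chromosome 6 of mm10 (45060061 to 47301369) and spans 2241 kb. Its normalized counts were 9247, 13467, 9069 and 5337 in control replicates 1, 3, 4 and 5 and 8204, 7672, 3299 and 3090 in mutant replicates 2, 3, 4 and 5. Of the controls, 3 lay above every mutant, and control replicate 5 fell between the higher and the lower pair of mutants. The fold change was 0.57 (95% interval 0.32 to 1.02) and the log2 fold change -0.81 (SE 0.38, limma p = 0.058, adjusted p = 0.58; exact permutation p = 0.14). The exact permutation tests are two-sided and use the 70 arrangements of the libraries, and the smallest p they can give is 0.029. Leaving out control replicate 5, mutant replicate 2 or mutant replicate 3 brought the log2 fold change to -1.05, -1.04 or -1.01 and past the call. Without control replicate 1 it was -0.78.

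Cntnap4 (Caspr4, chromosome 8, 112570043 to 112882705) was next among the Caspr genes. It had 3693, 10454, 7173 and 2790 normalized counts in control replicates 1, 3, 4 and 5 and 5786, 5119, 2207 and 1633 in mutant replicates 2, 3, 4 and 5. Control replicates 3 and 4 were above all mutants, and mutant replicates 4 and 5 were below all controls, while mutant replicates 2 and 3 exceeded control replicates 1 and 5. Its log2 fold change of -0.71 (SE 0.49, limma p = 0.17, adjusted p = 0.63; exact permutation p = 0.31) carried an interval of the fold change from 0.29 to 1.29, and the log2 value was -0.88 without control replicate 1. An annotated antisense gene, Gm45904, shares exonic bases with Cntnap4, and as the library kit does not mark strand, reads of the 2 cannot be told apart.

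Cntnap1 (Caspr, chromosome 11, 101173771 to 101190720), the paranodal member, had 2568, 11625, 6937 and 4894 normalized counts in the controls and 5633, 5829, 3188 and 2687 in the mutants, in the same order of replicates. Control replicate 1 was the lowest of the 8 libraries and control replicate 3 the highest, 4.53 times above it. The log2 fold change was -0.46 (SE 0.43, limma p = 0.30, adjusted p = 0.71; exact permutation p = 0.51). Without control replicate 1 it was -0.84 (limma adjusted p = 0.77) and Cntnap1 passed the call.

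Its paranodal partner Cntn1 (chromosome 15, 91949530 to 92341967) had 54730, 124740, 71629 and 51515 normalized counts in the controls and 72754, 82312, 38667 and 36584 in the mutants. Mutant replicates 4 and 5 were below all controls, while mutant replicates 2 and 3 were above 3 of the 4 controls. The log2 fold change was -0.39 (SE 0.37, limma p = 0.32, adjusted p = 0.72; exact permutation p = 0.40), and the interval of the fold change, 0.43 to 1.35, includes both a loss of more than 1.5-fold and a small rise. Without control replicate 1 the log2 fold change was -0.52.

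Cntn2 (TAG-1, chromosome 1, 132509425 to 132542943), the juxtaparanodal contactin, depended most on 1 library. It had 844, 4805, 4178 and 3307 normalized counts in the controls and 2080, 3433, 2152 and 2556 in the mutants. Control replicate 1 was 5.69-fold below control replicate 3 and lower than all mutants, and the mutants lay within a 1.65-fold range. The log2 fold change was -0.13 (SE 0.47, limma p = 0.79, adjusted p = 0.94; exact permutation p = 0.91). It was -0.69 (limma adjusted p = 0.77) and past the call without control replicate 1, and 0.14 and 0.08 without control replicates 3 and 4.

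Cntn6 (NB-3, chromosome 6, 104493044 to 104863403) had the lowest fold change of the contactins. Its normalized counts were 6110, 5191, 3968 and 2258 in the controls and 3023, 3247, 2480 and 2070 in the mutants. As for Cntnap2, 3 controls lay above every mutant and control replicate 5 lay among the mutants. The fold change was 0.65 (95% interval 0.41 to 1.03) and the log2 fold change -0.62 (SE 0.30, limma p = 0.063, adjusted p = 0.58; exact permutation p = 0.14). Cntn6 was the 1 gene of the 9 called by count tests on the recovered reads, with a log2 fold change of -0.66 in edgeR (adjusted p = 0.57) and -0.67 in DESeq2 (adjusted p = 0.40). These tests called 1206 and 1573 of the 31171 genes lower. Without control replicate 1 the limma value was -0.43, and without control replicate 5 it was -0.91 and past the call.

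Cntn4 (BIG-2, chromosome 6, 105677667 to 106700135), which binds the amyloid precursor protein, had 5326, 4380, 3952 and 2065 normalized counts in the controls and 3852, 3834, 2805 and 2736 in the mutants. The same 3 controls were above all mutants as for Cntn6, but control replicate 5 was the lowest of all 8 libraries. The log2 fold change was -0.19 (SE 0.29, limma p = 0.53, adjusted p = 0.83; exact permutation p = 0.51), -0.47 without control replicate 5 and -0.01 without control replicate 1.

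Cntn5 (NB-2, chromosome 9, 9660891 to 10904818) was the steadiest of the 9 genes among controls. It had 1573, 1719, 1456 and 1401 normalized counts in the controls, a coefficient of variation of 9.16%, and 880, 1798, 1211 and 1044 in the mutants. Mutant replicates 2, 4 and 5 were below all controls and mutant replicate 3 was above all of them. The log2 fold change was -0.37 (SE 0.24, limma p = 0.16, adjusted p = 0.62; exact permutation p = 0.17) and reached -0.56 without mutant replicate 3, still under 1.5-fold, and was -0.35 without control replicate 1. An annotated antisense gene, Gm32710, shares exonic bases with Cntn5.

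Cntn3 (BIG-1, chromosome 6, 102162655 to 102579917) was the least abundant of the 9 genes per length. It had 1039, 1775, 1765 and 1107 normalized counts in the controls and 1276, 1457, 947 and 915 in the mutants. The controls formed a high pair and a low pair, with mutant replicates 2 and 3 between them and mutant replicates 4 and 5 below both. The log2 fold change was -0.29 (SE 0.26, limma p = 0.29, adjusted p = 0.71; exact permutation p = 0.34), and -0.43 without control replicate 1. Cntn3, Cntn6 and Cntn4 follow each other within 4.54 Mb of chromosome 6, together with Chl1, a relative of L1cam. Of the 19 genes tested in that stretch, 0 were called in either direction.

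**Figure D3:**
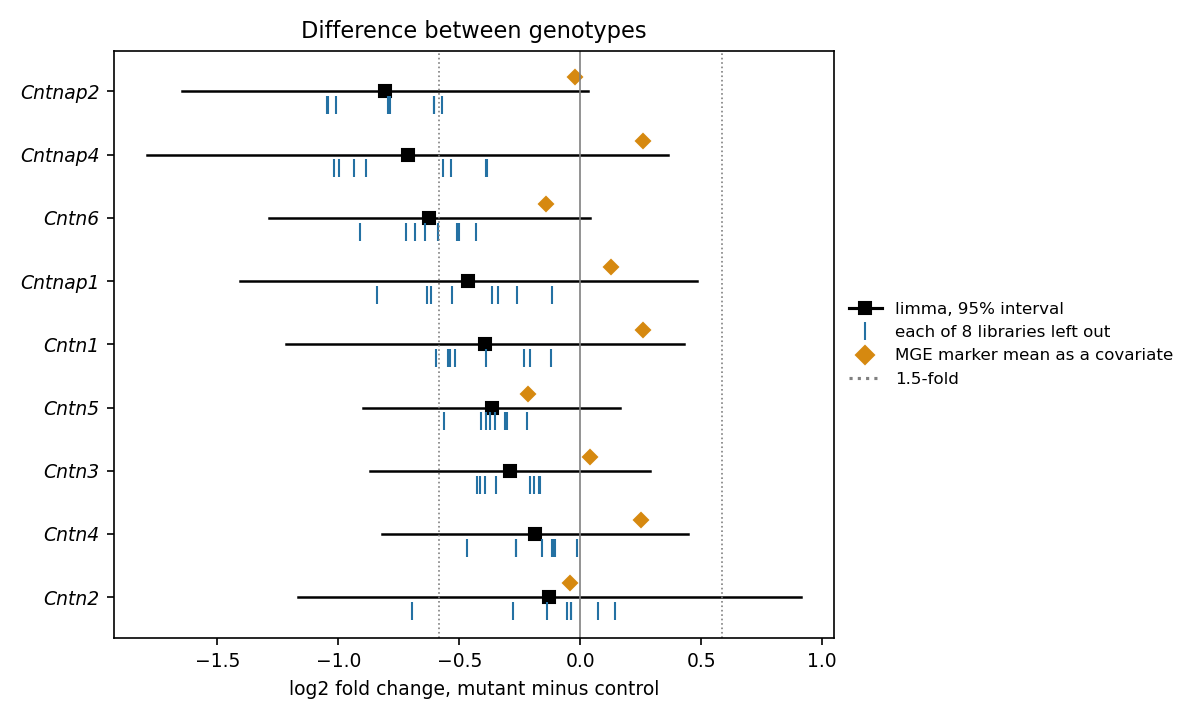
Log2 fold change (mutant minus control) of the 9 genes with its 95% interval from limma (black), the values with each of the 8 libraries left out (blue) and the value with the mean of 13 MGE interneuron markers as a covariate (orange). All 9 intervals include 0, and the covariate values lie between -0.22 and 0.26.

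The 9 genes followed the interneuron markers of each library to different degrees. All 13 MGE interneuron markers had a log2 fold change below 0 (median -1.04). Of these, 5 were called lower, namely Gad1, Gad2, Pvalb, Kcnc1 and Syt2, where 3.17% of all genes tested were called lower. All 13 were also below 0 without control replicate 1 (median -0.97), and 2, Kcnc1 and Syt2, were called. Over the 8 libraries the log2 value of Cntnap2 followed the mean log2 value of the 13 markers with Pearson r = 0.99 (permutation p = 4.96e-05, adjusted p = 0.00089) and Spearman rho = 0.98 (permutation p = 0.0004, adjusted p = 0.0071). Without the 2 libraries farthest from the median of the markers r was 0.98, and it was 0.99 within the 4 controls and 0.98 within the 4 mutants. The mutants form 2 close pairs, replicates 2 and 3 and replicates 4 and 5. The value within mutants thus rests mostly on the difference between these pairs. Within mutants r also reached 0.9985 for Cntnap1, whose r over the 8 libraries was 0.69. Cntnap4 (r = 0.92, rho = 0.83, adjusted permutation p = 0.014 and 0.069), Cntn1 (r = 0.90, rho = 0.79, adjusted permutation p = 0.017 and 0.10) and Cntn6 (r = 0.88, rho = 0.95, adjusted permutation p = 0.022 and 0.010) came next by Pearson r. For these 3 genes r was 0.78, 0.77 and 0.85 without the 2 farthest libraries. Cntn4 had r = 0.76 and rho = 0.88 (adjusted permutation p = 0.090 and 0.043), so it passed 0.05 by rank alone. Cntn3 (r = 0.78, rho = 0.76), Cntnap1 (r = 0.69, rho = 0.50) and Cntn5 (r = 0.57, rho = 0.71) had adjusted permutation p between 0.088 and 0.49 by either measure. Cntn2 had r = 0.12 and rho = 0.33 with the same markers (adjusted permutation p = 0.84 and 0.74). This low value rested in part on control replicate 1. For Cntn2 r was 0.05 without the 2 farthest libraries and 0.27 within the 4 mutants. Without control replicate 1 r with the markers was 0.69 for Cntn2 and 0.99 for Cntnap1. For the other genes it ran from 0.54 (Cntn5) to 0.99 (Cntnap2). These p-values were adjusted over 18 relations, the 9 genes with each of 2 marker lists. The permutations moved all 8 libraries freely, without regard to genotype or to libraries that resemble each other, so the p-values can be too small. A close likeness was also common: of 13751 other genes compared, 836 had r above 0.9 with Cntnap2.

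The share of the genotype difference that goes with these markers was not tested, but the fit with the marker mean as a covariate gave values beside it. This fit was added after the data had been seen. The markers were themselves lower in mutants, so the covariate carries part of the genotype difference. A gene that follows the covariate as closely as Cntnap2 did must come near 0 in such a fit. In it the log2 fold change was -0.02 for Cntnap2, -0.14 for Cntn6, -0.22 for Cntn5 and -0.04 for Cntn2. It was 0.26 for Cntn1, 0.26 for Cntnap4, 0.25 for Cntn4, 0.13 for Cntnap1 and 0.04 for Cntn3, above 0 in all 5, and 0 of the 9 genes were called.

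Several of the 9 genes are also made outside interneurons, by oligodendrocytes among others. The 10 oligodendrocyte markers were all below 0 (median log2 fold change -0.62), with Mog, Mag and Opalin called lower, as were 3.17% of all genes tested. Without control replicate 1 none of the 10 was called (median -0.34). Their summed counts ran from 229955 to 673772 in controls and from 202878 to 287269 in mutants. The highest of these sums was in control replicate 1, where Cntn2 and Cntnap1 were at their lowest and Cntn4 and Cntn6 at their highest. With the mean of the oligodendrocyte markers r ran from -0.48 for Cntn2 (rho = -0.21, adjusted permutation p = 0.42 and 0.80) to 0.64 for Cntn6 (rho = 0.26, adjusted permutation p = 0.19 and 0.74), and 0 of the 9 genes reached an adjusted p under 0.05. Without the 2 farthest libraries these were 0.05 and -0.65, and without control replicate 1 they were 0.51 and 0.30.

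Among the other lists of markers, endothelial and mural genes had 4 of 10 called higher (Flt1, Kdr, Tek and Pdgfrb) and 0 lower, with a median log2 fold change of 0.53, where 3.98% of all genes tested were called higher. Of the 6 not called, Cldn5 was at -0.13 and Ly6c1 at -0.50, and without control replicate 1 Tek alone was called. Their summed counts were 178303 to 281991 in controls and 267019 to 285403 in mutants. Excitatory neuron markers had 1 of 12 called lower (Neurod6), with a median of -0.18. CGE interneuron markers had 1 of 11 called lower (Crh, not called without control replicate 1), with a median of -0.60. Astrocyte (10 genes, median -0.11), microglia (10 genes, median -0.49) and oligodendrocyte precursor markers (8 genes, median -0.35) had 0 called. No marker of any list was at 0 in all libraries. The part of these cells in the values of the 9 genes was not tested.

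**Figure D4:**
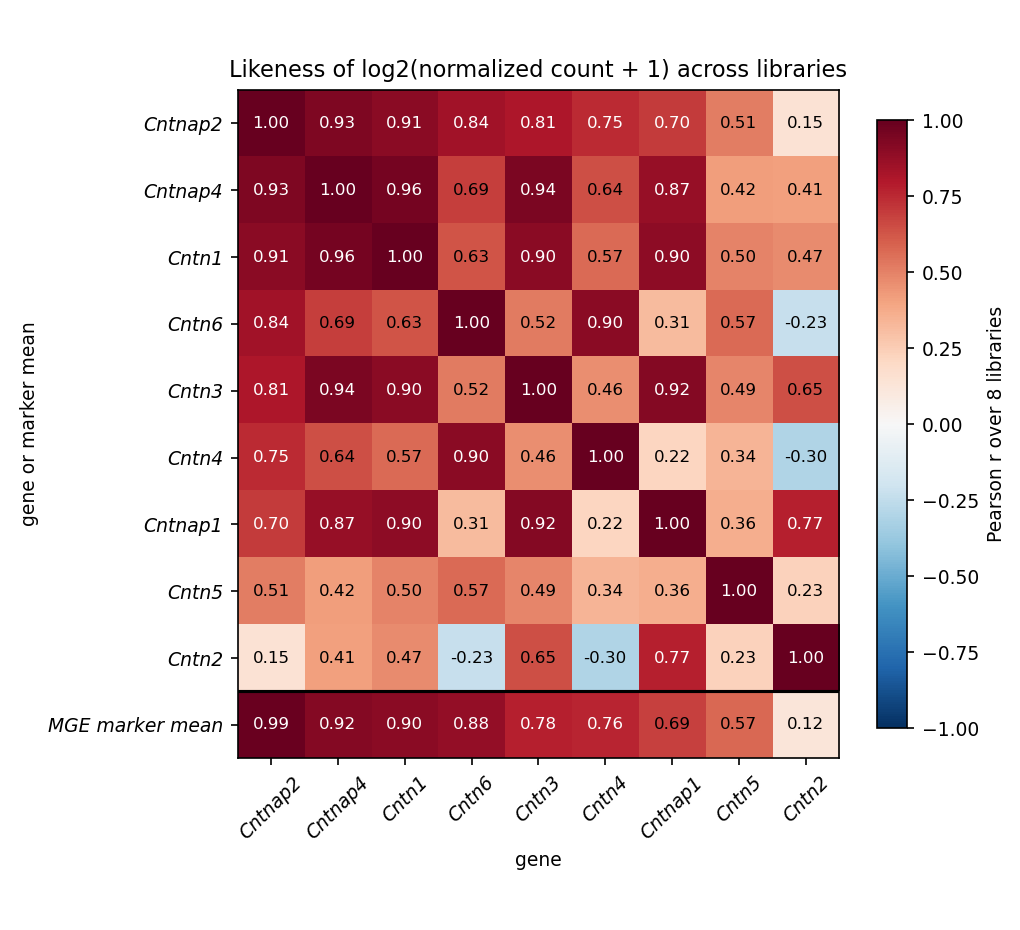
Pearson r between the log2(normalized count + 1) of each pair of the 9 genes over the 8 libraries, with the mean of 13 MGE interneuron markers in the last row. Genes are ordered by that row, from Cntnap2 (0.99) to Cntn2 (0.12), and 34 of the 36 pairs are above 0.

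The genes also varied together among themselves. Of the 36 pairs, 34 had a positive r, and 10 had an adjusted permutation p under 0.05 for r and 8 for rho. These permutations also ignored genotype and the likeness of some libraries, so the p-values of pairs can be too small. Cntn1 and Cntnap4 were the closest pair (r = 0.96, rho = 0.90, permutation p = 0.00055 and 0.0046, adjusted p = 0.0096 and 0.023), and r was 0.91 without the 2 libraries farthest from the median of Cntn1. It was 0.94 within controls and 0.96 without control replicate 1. Within mutants it was 0.97, a value that rests mostly on the difference between the 2 close pairs of mutants. The paranodal pair Cntn1 and Cntnap1 had r = 0.90 and rho = 0.79 (permutation p = 0.0038 and 0.028, adjusted p = 0.017 and 0.091), with r = 0.72 without the 2 farthest libraries and 0.97 without control replicate 1. The neighbours on chromosome 6, Cntn4 and Cntn6, had r = 0.90 and rho = 0.95 (permutation p = 0.0019 and 0.0011, adjusted p = 0.0099 and 0.020), with r = 0.93 without the 2 farthest libraries and 0.85 without control replicate 1.

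The juxtaparanodal pair, Cntn2 and Cntnap2, had a low r over the 8 libraries that rested in part on control replicate 1. For that pair r was 0.15 and rho 0.24 (permutation p = 0.74 and 0.58, adjusted p = 0.74 and 0.62). It had r = 0.50 without the 2 farthest libraries and 0.68 without control replicate 1, but 0.11 within controls and 0.27 within mutants. The 2 negative pairs were Cntn2 with Cntn4 (r = -0.30, permutation p = 0.47, adjusted p = 0.53) and with Cntn6 (r = -0.23, permutation p = 0.61, adjusted p = 0.63). Control replicate 1, where Cntn2 was lowest and Cntn4 and Cntn6 were highest, is among the points of both. The rho of these pairs was 0.00 and 0.12 (adjusted permutation p = 1 and 0.82), r was 0.12 and 0.50 without the 2 farthest libraries, and without control replicate 1 it was 0.37 and 0.72.

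Each gene was also compared with 13751 other genes, those with a symbol of their own whose mean over all libraries reached 100 normalized counts. The nearest to Cntnap2 by Pearson r over the 8 libraries were Gpr176 (0.997), Alg2 (0.996) and Dner (0.995), and 836 genes had r above 0.9 with it. Those nearest to Cntn6 were Clcc1 (0.993), Pigh (0.993) and St7l (0.992), with 961 genes above 0.9. Cntn1 was nearest to Slc23a2 (0.998), Edil3 (0.994) and Ssr1 (0.992), and Cntnap4 to Tmem151b (0.991), Shisa9 (0.990) and Rxfp3 (0.990). Cntnap1 was nearest to Grin3a (0.987), Tbl2 (0.982) and the Kv1 channel gene Kcna6 (0.981).

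The remaining genes had fewer genes above 0.9 than these (106 for Cntn3, 78 for Cntn2, 68 for Cntn4 and 8 for Cntn5). Cntn3 was nearest to Abca5 (0.982) and Foxred2 (0.977), Cntn4 to Mc4r (0.972), Dnajb4 (0.969) and Mterf2 (0.966), and Cntn2 to Tvp23a (0.989), the joint locus Atp6v0a4 // D630045J12Rik (0.981) and Snx19 (0.979). Cntn5 was nearest to Eif3l (0.965), Rhov (0.939) and Nub1 (0.938). With 8 libraries and 13751 genes such values arise for many genes, so they are a description of these libraries only.

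The start regions of 3 genes are shown because Cntn4 and Cntn6 varied together and Cntnap2 and Cntn6 had the lowest p of the 9. They are 300-base RefSeq windows of GRCm38.p6 (250 bases before and 50 after an annotated start), all on the plus strand: chr6:104492794-104493093 for Cntn6, chr6:106118692-106118991 for the second of 2 Cntn4 windows and chr6:45059811-45060110 for the first of 2 Cntnap2 windows. Windows were found for 7 of the 9 genes. Capitals mark the motifs searched on both strands, which were chosen with the windows in view. An E-box was searched as CAGCTG. A homeodomain core was searched as TAATTA and a GC box, common near start sites, as GGGCGG. A cyclic AMP response element was searched as TGACGTCA, and the TATA box of classical promoters as TATAAA.
Cntn6: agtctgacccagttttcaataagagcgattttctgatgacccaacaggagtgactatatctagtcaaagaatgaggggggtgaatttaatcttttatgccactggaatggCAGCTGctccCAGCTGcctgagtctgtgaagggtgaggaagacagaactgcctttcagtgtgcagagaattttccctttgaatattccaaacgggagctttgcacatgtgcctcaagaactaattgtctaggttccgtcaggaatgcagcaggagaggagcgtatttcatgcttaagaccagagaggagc
Cntn4: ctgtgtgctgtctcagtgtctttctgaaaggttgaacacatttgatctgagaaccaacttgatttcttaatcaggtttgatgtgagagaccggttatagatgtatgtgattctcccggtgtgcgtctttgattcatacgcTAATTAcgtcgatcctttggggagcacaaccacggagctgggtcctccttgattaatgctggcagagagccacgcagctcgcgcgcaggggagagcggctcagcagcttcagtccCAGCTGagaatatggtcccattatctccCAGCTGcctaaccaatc
Cntnap2: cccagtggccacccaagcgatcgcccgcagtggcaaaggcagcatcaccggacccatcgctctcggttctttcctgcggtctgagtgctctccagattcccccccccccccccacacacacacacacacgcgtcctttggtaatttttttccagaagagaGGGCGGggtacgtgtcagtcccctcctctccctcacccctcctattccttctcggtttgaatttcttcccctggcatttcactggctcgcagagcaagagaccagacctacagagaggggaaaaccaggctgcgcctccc

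The windows of Cntn6 and Cntn4 shown each held CAGCTG at 2 places. Of the 32851 RefSeq windows of this length 16.3% hold it at least once, and the share with 2 or more was not counted. The other Cntn4 window held it at 1 place. In Cntn6 the 2 places began at bases -140 and -130 from the start, and in the Cntn4 window shown at bases 6 and 34. The Cntn4 window also held TAATTA once (5.29% of all windows), at base -110, and the Cntnap2 window held GGGCGG once (35.7%), at base -90. No match overlapped another. TGACGTCA (1.79% of all windows) and TATAAA (13.6%) were not among the letters of these 3 windows. GC content was 46.3% in Cntn6, 50% in Cntn4 and 59.7% in Cntnap2, against a median of 52.7% over all windows. A match describes these letters only. The Cntn4 start used by RefSeq lies inside the gene as the table gives it.

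The ligands and co-receptors of contactins were described from a list of 12 genes, all of which were tested. None was called lower and 1 was called higher, where 3.17% of all genes tested were called lower and 3.98% higher. Of the 12, 9 were below 0, and the median log2 fold change was -0.15. The gene called higher was Ptprg, a receptor tyrosine phosphatase that binds Cntn3 to Cntn6, with 6707 to 15051 normalized counts in controls and 17969 to 27496 in mutants. The 2 ranges did not overlap, and every mutant lay above every control in 861 of the 31171 genes tested. Ptprg had a log2 fold change of 0.88 (SE 0.28, limma p = 0.0097, adjusted p = 0.58, exact permutation p = 0.029), or 0.62 and still called without control replicate 1. Nrcam, a neuronal cell adhesion molecule of the L1 group, also had no overlap, at 32567 to 44838 in controls and 28557 to 31354 in mutants. Every mutant lay below every control in 2.17% of all genes tested. Nrcam did not pass the call. Its log2 fold change was -0.33 (SE 0.20, limma p = 0.13, adjusted p = 0.60, exact permutation p = 0.029). Tnc, an extracellular matrix protein gene, was called lower (-0.59) when control replicate 1 was left out. App, the amyloid precursor protein gene, had -0.71 (exact permutation p = 0.14), and Chl1 had -0.72 (exact permutation p = 0.23). Notch1, proposed as a receptor for Cntn1 on glial cells, had 0.96 (SE 0.58, exact permutation p = 0.23).

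The partners of Caspr proteins at the axon were a list of 19 genes (Kv1 subunits, their scaffolds and the membrane cytoskeleton), and 13 of them were below 0, with a median of -0.25. In this list 1 gene was called lower and 1 higher, where 3.17% of all genes tested were called lower and 3.98% higher. Kcnab2, the beta subunit of Kv1 channels, was called lower, at 1830 to 2769 normalized counts in controls and 1190 to 1777 in mutants (log2 fold change -0.62, SE 0.21, limma p = 0.013, adjusted p = 0.58, exact permutation p = 0.029). Kcna2, the Kv1.2 channel gene, also had no overlap between genotypes (2.17% of all genes tested in this direction), at 14039 to 21546 in controls and 9803 to 13772 in mutants. Its log2 fold change of -0.49 (SE 0.21, limma p = 0.044, adjusted p = 0.58, exact permutation p = 0.029) was under 1.5-fold. Epb41l2, a 4.1 protein that links membrane proteins to the cytoskeleton, was called higher (0.73, SE 0.26, limma p = 0.017, adjusted p = 0.58, exact permutation p = 0.057). Kcnab2 (-0.64) and the sodium channel gene Scn1a (-0.77) were called lower without control replicate 1, and Epb41l2 (0.51) was not called.

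The 4 other Cntnap genes were not called either, except Cntnap5a without control replicate 1 (-0.72). Cntnap5a had a log2 fold change of -0.50 (exact permutation p = 0.20) and Cntnap3 one of -0.52 (exact permutation p = 0.37). Cntnap5c was at -0.0019 (exact permutation p = 1) and Cntnap5b at 0.57 (exact permutation p = 0.51).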

How the data were processed

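Ribosome-bound RNA of P15 cortical synaptosomes was sequenced in 4 control and 4 mutant libraries, and each column of the table was matched to its sample by name. The authors aligned reads with STAR 2.4.0 to mm10, counted them on constitutive regions of Mouse Fast DB genes and deposited a signal, the counts after division by each library's DESeq2 size factor. Division by each library's smallest value above 0 returned whole reads for 100% of values (tolerance 0.01). Libraries were amplified with a kit that does not mark strand, and no molecular identifiers are described. The paper names 2 sequencing batches, but no label ties a library to a batch, so no within-batch value is given.

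Limma 3.58.1 (trend) in R 4.3.3 was fitted to log2(normalized count + 1) of the 31171 genes that averaged 10 or more in either genotype, with Benjamini-Hochberg adjustment over all of them. The study counted reads and used DESeq2. As normalized values were deposited, edgeR 4.0.16 (quasi-likelihood) and DESeq2 1.42.0 on recovered reads were alternatives. Exact permutation tests and correlations used NumPy 2.4.6, with ranks and the adjustment of the correlation p-values from SciPy 1.17.1. The fit was tested on simulated counts. Libraries of a genotype differed from each other by more than sampling noise, so all 8 were kept. These differences were uneven. Chi-square per degree of freedom over genes was 47.4 for mutant replicates 2 and 3 and 27.4 for mutant replicates 4 and 5. It ran from 251 to 275 for the other mutant pairs. Among control pairs it ran from 115 (replicates 4 and 5) to 401 (replicates 3 and 5).

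The 9 genes are all members by symbol. From the lists, genes past the call were named with the extremes of a list, and for each of the 9 the 3 nearest genes by Pearson r. For 1 of the nearest genes and 1 marker gene, values are not reported here. Kcna2, Notch1, App, Chl1 and the Cntnap genes were named after their values were seen or as extremes, as were Nrcam, Tnc, Scn1a, Cldn5 and Ly6c1. Members and lists were chosen with earlier results of these data known. Lengths came from GENCODE M21 (GRCm38), start regions from RefSeq (GRCm38.p6).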

Additional observations from a re-analysis of the deposited data

How the results depend on the processing

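The 9 genes called 0 times in either direction kept 0 calls as higher in all alternatives, but not as lower. With library weights 3 were called lower (Cntnap1 at a log2 fold change of -0.88, Cntnap2 at -1.08 and Cntnap4 at -1.17), beside 1633 of the 31171 genes tested. EdgeR and DESeq2 each called 1 lower (Cntn6), beside 1206 and 1573 of the same 31171. The fit with the replicate block called 5 lower (Cntn1, Cntn2, Cntnap1, Cntnap2 and Cntnap4), beside 1719 of them. With 1 library left out between 0 and 2 were called lower, beside 515 to 1977 of all genes. Of the single genes, Cntn2 ran from -0.69 (without control replicate 1) to 0.14 and reversed to 0.14 without control replicate 3, to 0.08 without control replicate 4 and to 0.056 when scaled by reads on genes. With the MGE marker mean as a covariate Cntn1 reversed to 0.26, Cntn3 to 0.042, Cntn4 to 0.25, Cntnap1 to 0.13 and Cntnap4 to 0.26. These last 2 alternatives were chosen after seeing the data, and the causes were not tested.

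Over all genes tested, 988 were called lower and 1241 higher. With 1 library left out the counts ran from 515 (without mutant replicate 5) to 1977 (without control replicate 5) and from 619 (without mutant replicate 4) to 1792 (without control replicate 4). Library weights gave 1633 and 1997, DESeq2 1573 lower, the marker covariate 715 higher and scaling by reads on genes 415 and 2255. An adjusted p of at most 0.05 left 14 lower and 0 higher in limma, against 1175 and 1421 at an unadjusted p under 0.05, and 36 and 32 in DESeq2.

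The replicate block gave 1719 genes lower. Same-numbered libraries correlated at 0.08 to 0.10 in their deviations from the genotype means, not above 0.1 in every pair, and 5 of the 6 libraries with a same-numbered partner correlated best with it. The mean r was 0.094 for same-numbered pairs and -0.021 for the others. Control replicate 3 also had r = 0.083 with mutant replicate 2, and control replicate 5 had 0.085 with mutant replicate 4. The main fit took the numbers as names, and its 0 calls among the 9 genes depend on that choice. The block called 5 of the 9 lower, but left 0 of all genes at an adjusted p under 0.05. It uses only the 3 numbers that both genotypes share. Pseudocounts of 0.1 and 10, other filters on low values, quantile normalization and limma without trend left each of the 9 genes below 0 and uncalled. Reads were ample, so the spread among 4 libraries a genotype limits these comparisons.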
